A study of Mus musculus with 3 samples.

Results

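Cxcl9, Cxcl10 and Cxcl11 encode 3 chemokines that bind the receptor CXCR3, and Cxcr3 encodes that receptor. Their 4 rows were taken by gene name from a count table of 50262 genes. The table came from gliomas of a genetically engineered mouse model and held unique molecular identifiers (UMIs), each standing for a captured RNA molecule, for 20811 cells. The questions asked of the 4 genes were how their levels stood in the CD45+ and CD45- sorts, at each tumor stage and in each class of cell, and which classes held the ligands and which the receptor.

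In this model the tumors were driven by a Cre-dependent transgene of human EGFR in adult mice of both sexes and mixed strain background that were Cdkn2a-/- and carried a conditional luciferase reporter. Tumors were started by injecting a lentivirus that carries Cre into the brain. The libraries were labelled early, medium or large, the last of which are termed late in what follows. All samples therefore shared the Cdkn2a deletion, and no brain without a tumor was analysed here. Viable cells were sorted into CD45+ (leukocyte) and CD45- fractions and barcoded in droplets, giving 4 technical libraries for each sort and stage over 3 runs. Each stage was represented by 1 tumor sample. The methods of the study describe the early sample as a pool of mice. Stages and sorts of the cells came from the annotation of each library, matched by run and library barcode. The stages therefore could not be tested against each other: intervals given below for a stage cover counting error only, and a stage and its tumor sample cannot be told apart. The CD45+ and CD45- sorts came from the same 3 tumor samples and were tested as 3 pairs.

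After filtering, 17781 cells were kept. CD45+ cells numbered 5091, 3983 and 2111 at the early, medium and late stage, with 10808099, 9729273 and 5381839 UMIs and a median of 1964 to 2109 UMIs per cell. CD45- cells numbered 2725, 1603 and 2268, with 8100096, 6559876 and 10589403 UMIs and medians of 2282 to 3078.5 per cell. Libraries held 17 to 1751 cells, the smallest being 2 late CD45+ libraries of 17 and 91 cells. Of 18335 distinct cell barcodes, 2117 were found in more than 1 library, which touches 4593 cells. Levels are given as CPM, the UMIs of a gene per 1000000 UMIs of the same cells. Because a sum over a sort mixes cell number and RNA per cell, fewer cells of a type and less RNA per cell cannot be told apart in it.

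CXCL9, CXCL10 and CXCL11 are interferon-inducible chemokines that attract activated T cells and natural killer cells through CXCR3, a G protein-coupled receptor. CXCL9 depends mostly on interferon gamma, whereas Cxcl10 can also be switched on by type I interferon, by TNF and by NF-kB downstream of pattern-recognition receptors. In brain tumors the ligands are known as products of myeloid cells. The Cxcl11 gene of C57BL/6 mice carries a frameshift, so transcripts from that strain do not encode the intact chemokine.

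The ligand genes lie side by side on the minus strand of mouse chromosome 5 (GRCm38): Cxcl9 (ENSMUSG00000029417) at chr5:92321347-92328079, Cxcl10 (ENSMUSG00000034855) at chr5:92346638-92348889 and Cxcl11 (ENSMUSG00000060183) at chr5:92359544-92365485. Cxcr3 (ENSMUSG00000050232) lies at chrX:101731535-101734269, also on the minus strand. GENCODE lists Cxcl11 as a polymorphic pseudogene. An exon of Art3, which runs on the plus strand, overlaps the 3′ end of Cxcl10 by 133 bases, and whether the counting used strand is not given in the sources used here. Reads from that overlap can therefore have been assigned to either gene. Gm2673, a processed pseudogene on the plus strand, overlaps Cxcl11 by 1582 bases of exon and had 3 UMIs in all.

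The 250 bases upstream of the start of Cxcl9 and Cxcl10 are shown because Cxcl9 and Cxcl10 stood apart in the classes of cell that held them, as described below. They were taken from RefSeq on GRCm38.p6, where 2 of the 3 ligands matched, at chr5:92328080-92328329 and chr5:92348890-92349139 on the minus strand. Capitals mark matches, on either strand, to an interferon-stimulated response element (GAAANNGAAA) or to the NF-kB motif, and the letters TTCNNNGAA of a gamma-activated site were searched too.
Cxcl9: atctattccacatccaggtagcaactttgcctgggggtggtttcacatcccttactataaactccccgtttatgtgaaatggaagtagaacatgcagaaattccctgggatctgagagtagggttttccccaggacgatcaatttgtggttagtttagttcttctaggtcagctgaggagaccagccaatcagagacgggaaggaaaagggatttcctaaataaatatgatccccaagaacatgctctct
Cxcl10: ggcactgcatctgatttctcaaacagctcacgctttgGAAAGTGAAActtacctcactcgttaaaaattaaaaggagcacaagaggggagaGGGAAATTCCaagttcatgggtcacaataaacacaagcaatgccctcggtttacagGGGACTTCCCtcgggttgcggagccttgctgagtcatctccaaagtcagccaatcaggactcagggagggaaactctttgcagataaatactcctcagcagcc
The Cxcl10 window held the interferon element at bases 213 to 204 before the start and NF-kB matches at bases 159 to 150 and 103 to 94. Among 32851 mouse promoter windows of the same length, 2.98% held the interferon element, 3.9% the NF-kB motif and 7.02% the gamma-activated site. The Cxcl9 window held none of these letter strings, which says only that they are not in these bases.

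The 3 ligands and the receptor were found mainly in the leukocyte sort. Over all kept cells, Cxcl10 gave 11652 UMIs in 2397 cells, Cxcl9 3834 UMIs in 678 cells, Cxcl11 546 UMIs in 225 cells and Cxcr3 141 UMIs in 104 cells. CD45+ cells held 89.4% of the Cxcl10 UMIs, 98.4% of those of Cxcl9, 84.8% of those of Cxcl11 and every Cxcr3 UMI.

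Cxcl9 had a different level at each stage in CD45+ cells. It stood at 34.9 CPM at the early stage (95% Poisson interval 31.4 to 38.6), 347 at the medium stage (336 to 359) and 2.79 at the late stage (1.56 to 4.597). The 4 medium libraries ranged from 318 to 424, whereas the early libraries ranged from 8.07 to 46.6 and the late ones from 0 to 3.75. Libraries of the medium tumor thus lay above all early and late ones, and no early library was as low as a late one. The share of CD45+ cells with a Cxcl9 UMI was 0.943%, 14.9% and 0.474%, or 0.545%, 11.3% and 0.196% after thinning each cell to 1000 UMIs. As a log2 ratio to the early stage, Cxcl9 was 3.32 at the medium stage (3.16 to 3.47) and -3.65 at the late stage (-4.50 to -2.91). Taken run by run, the medium to early ratio was 5.39, 2.78 and 3.90, the first of these resting on 3 early UMIs. In CD45- cells Cxcl9 stood at 0.988, 6.40 and 1.13 CPM, from 8, 42 and 12 UMIs.

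Cxcl10 was present at every stage. Its CD45+ level was 458 CPM at the early stage (446 to 471), 426 at the medium stage (413 to 439) and 245 at the late stage (232 to 259), with 21.4%, 20.4% and 15.3% of cells holding a UMI (17.4%, 15.4% and 10.5% after thinning). Libraries ranged from 401 to 670, from 375 to 518 and from 128 to 314. The early and medium libraries overlapped, and every late library lay below them. The log2 ratio of medium to early was -0.10 (-0.16 to -0.05), which is smaller than the spread between libraries of a stage and was 0.0041 when cells were weighted equally. The late to early ratio was -0.90 (-0.99 to -0.81) and ranged from -1.27 to -0.59 between runs. In CD45- cells Cxcl10 stood at 46.8, 119 and 6.70 CPM, and the medium libraries ranged from 39.3 to 278.

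Summed over all CD45+ cells, Cxcl11 followed the order of Cxcl9 at lower counts. CD45+ levels were 11.8, 33.2 and 2.23 CPM, with libraries at 5.38 to 17.7, 26.7 to 40.8 and 0 to 3.39, so that the 3 stages did not overlap. In CD45- cells the level was 2.59, 3.35 and 3.78, and at the late stage it was above that of the CD45+ cells.

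Cxcr3 was rare. CD45+ levels were 7.12 CPM at the early stage (5.62 to 8.90), 5.55 at the medium stage (4.17 to 7.24) and 1.86 at the late stage (0.891 to 3.42), with a UMI in 0.982%, 1.15% and 0.379% of cells (0.565%, 0.679% and 0.196% after thinning). The early libraries (4.52 to 13.4) and medium libraries (4.05 to 7.37) overlapped, and the late libraries (0 to 2.08) lay below both. No Cxcr3 UMI was found in any of the 12 CD45- libraries, which allows up to 0.370, 0.457 and 0.283 CPM at the early, medium and late stage.

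**Figure D1:**
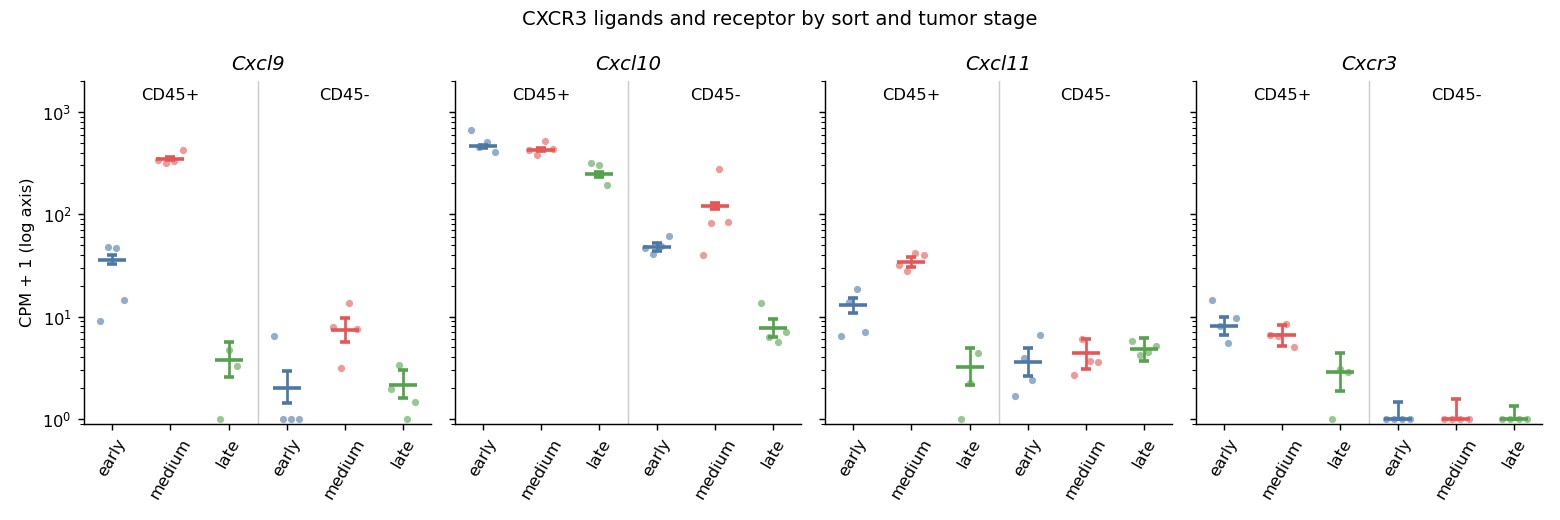
Level of each gene in CPM plus 1 (log axis) by sort and tumor stage. Horizontal bars show the sum over all libraries, vertical bars its 95% Poisson interval and points the libraries of 20 or more cells; the CD45+ points of Cxcl9 sit at 318 to 424 at the medium stage and at or below 46.6 at the other stages, and all CD45- points of Cxcr3 are at 0.

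Tested over the 3 tumor pairs, Cxcl9 and Cxcl10 were higher in CD45+ than in CD45- cells (edgeR quasi-likelihood test with the tumor sample as a block, Benjamini-Hochberg adjusted over 18433 genes). In this comparison 46.1% of all genes were called, 20.4% higher and 25.7% lower, and the median log2 difference of all genes was -0.04. The tumor samples also differ in stage, so the spread between pairs includes that difference. Cxcl9 averaged 128 ± 190 CPM in CD45+ and 2.84 ± 3.09 in CD45- cells (SD, n = 3), a log2 difference of 4.96 (SE 0.83, adjusted p = 0.00315) with CD45+ higher in 3 of 3 pairs. In the late pair the sums held 15 against 12 UMIs, with overlapping intervals (1.56 to 4.597 and 0.586 to 1.98 CPM). The share of late cells with a Cxcl9 UMI was 0.474% in CD45+ and 0.485% in CD45- cells. Cxcl10 averaged 377 ± 115 against 57.6 ± 57.1, a log2 difference of 3.74 (SE 0.63, adjusted p = 0.00318), also in 3 of 3. Cxcr3 averaged 4.84 ± 2.70 CPM against 0. With no CD45- UMI it passed the filter on low counts through the CD45+ sums alone and could be called in that direction only, so its test is not given.

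Cxcl11 did not pass the test, with 15.8 ± 15.9 CPM in CD45+ and 3.24 ± 0.6004 in CD45- cells (log2 difference 2.12, SE 0.75, adjusted p = 0.0554). It was higher in CD45+ cells in the early and medium pairs and not in the late pair. Without the late tumor sample it passed at 3.14 (adjusted p = 0.00197), and it also passed without the pairing, at 2.72 (adjusted p = 0.0377), or with DESeq2, at 2.08 (adjusted p = 0.00858). Cxcl9 kept its call without each tumor sample in turn, from 3.73 without the medium one to 5.93 without the late one, but lost it when every gene with a count was tested (adjusted p = 0.111).

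The pathway around the ligands was compared between the sorts as well. Of 32 listed genes, 30 passed the filter on low counts, 24 were higher in CD45+ cells, 2 lower and 4 did not pass, with a median log2 difference of 1.52. Of all genes, 20.4% were called higher and 25.7% lower. The genes counted as higher include Ifng, Il2rb, Cxcr6 and Stat4, which were at or near 0 in CD45- cells and so passed the filter through the CD45+ sums. These could be called in that direction only, so the count of 24 was partly fixed in advance. Without scaling factors between sums the median of all genes moved by -0.36 and 22 of the list were higher, Stat2 and Usp18 no longer passing. Among all genes called, 44.2% were higher with those factors and 28.3% without.

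The interferon gamma group had 6 of 7 genes called higher, Ifng included, where 20.4% of all genes were. Ifng, the cytokine itself, had 19.99, 42.8 and 6.32 CPM in CD45+ cells at the early, medium and late stage and none in CD45- cells, so its call could go in that direction only. Ifng was at its highest in the medium tumor sample, as Cxcl9 was. Irf1, which binds interferon elements, was at its highest in the early one (189, 132 and 89.2 in CD45+ cells, log2 difference 2.09, adjusted p = 0.00292), and Jak2 did not pass.

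For the groups that follow, 20.4% of all genes were likewise called higher. All 6 tested genes of the type I interferon group were higher, among them Irf7, which amplifies the response (11.8, 63.8 and 8.55 CPM in CD45+ cells, log2 difference 2.68, adjusted p = 4.35e-04). Ifnb1 was too low to be tested. All 4 genes of the TNF and NF-kB group were higher, led by Tnf at 924.5, 314.5 and 319 CPM (log2 difference 4.38, adjusted p = 3.99e-04). Dpp4, whose peptidase trims the chemokines, was higher at 2.39 (adjusted p = 0.0335), while the scavenging receptors Ackr1 and Ackr3 were lower at -2.59 (adjusted p = 0.00236) and -2.85 (adjusted p = 0.00435). Of the 6 tested genes of type 1 lymphocytes, which carry CXCR3, 4 were called higher, among them Cxcr6, at 33.5, 25.3 and 31.03 CPM in CD45+ cells and at most 0.370 in CD45- cells, and Il2rb, at 31.4, 61.2 and 19.7 CPM against at most 0.370. Tbx21, which encodes T-bet, was not tested, with a mean of 4.74 ± 3.62 CPM in CD45+ and 0 in CD45- cells.

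Cells were next divided into classes by clustering without the 4 genes and the pathway list, and each cluster was named from marker genes only. Microglia-like CD45+ cells had 10510 to 13120 CPM of the 8 microglia markers, with P2ry12 in 80.4 to 93.2% of cells, and macrophage or monocyte-like cells had 6046 to 8683 of the macrophage and monocyte markers, with all of them detected. The macrophage or monocyte-like class also held 2905 to 3616 CPM of the microglia markers and P2ry12 in 20.5 to 33.2% of its cells. Dendritic cell-like cells had 1949, 5310 and 2499 CPM of the dendritic markers at the early, medium and late stage, beside 2076, 1748 and 3552 of the macrophage and monocyte markers, which were thus the higher at the early and late stage. T cell-like cells had 2913 to 3461 of the T cell markers. The makeup of the CD45+ sort differed between the tumor samples. Microglia-like cells were 78.4% of CD45+ cells at the early, 20.3% at the medium and 47.5% at the late stage, and macrophage or monocyte-like cells 3.85%, 40.6% and 31.2%.

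Cxcl9 belonged mainly to the macrophage or monocyte-like class, which held 61.8%, 89.0% and 60% of its CD45+ UMIs. Its level there was 482 CPM in 196 early cells, 802 in 1617 medium cells and 4.44 in 658 late cells, with a UMI in 8.67%, 29.0% and 0.608% of cells (6.15%, 23.2% and 0.459% after thinning). The early and medium samples were high and the late sample was not. In the late sample 9 UMIs were counted, 6 of them in 1 cell, and no run exceeded 7.63 CPM, whereas the medium runs stood at 742, 744 and 995.

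Dendritic cell-like cells came next, at 207, 385 and 11.96 CPM in 52, 103 and 32 cells (7.69%, 22.3% and 3.13% with a UMI). The early value rested on 31 UMIs in 4 cells, 25 of them in 1 cell. In the medium sample a cluster led by Xcr1, a receptor of cross-presenting dendritic cells, stood at 414, and a cluster with Mgl2 and Ccl17 at 598 from 22 cells. Border or perivascular macrophage-like cells had 21.8, 211 and 5.91, and microglia-like cells 8.88, 31.5 and 0.976. The order of the 4 myeloid classes was the same at the early and medium stage, and the late values rested on 1 to 9 UMIs per class.

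The share of microglia-like cells with a Cxcl9 UMI was 0.326%, 2.47% and 0.200%. Oligodendrocyte-like CD45- cells, which should lack the gene, had 0.145%, 0.606% and 1.15% at median depths of 2257.5, 2934 and 2539.5 UMIs, against 1944, 1745.5 and 1814 in the microglia. Taken over all runs, the late microglial share was below this background, as was the macrophage share of 0.608%. By run, set against late CD45- cells of all classes, this did not hold for macrophages in runs 2 and 3 or for microglia in run 2. Late CD45- cells of all classes had a UMI in 0.828%, 0% and 0.203% of cells in runs 1, 2 and 3. Late macrophage or monocyte-like cells had one in 0%, 0.656% and 0.690%, and late microglia-like cells in 0.238% and 0.178% in runs 2 and 3. In the medium CD45+ sort 4.07% of 172 glioma or oligodendrocyte progenitor-like and 3.63% of 193 B cell-like cells had a UMI, at median depths of 2634.5 and 2822, so the microglial share of 2.47% was not above them. Of the 73 early microglial UMIs, 37 were in 1 cell.

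Between classes over the 3 tumor samples, Cxcl9 was higher in macrophage or monocyte-like than in microglia-like cells by 5.17 on the log2 scale (SE 0.47, adjusted p = 3.35e-08, edgeR, higher in 3 of 3), in a comparison where 14.2% of 7249 genes were called higher. Dendritic cell-like cells were above microglia-like cells by 4.26 (SE 0.50, adjusted p = 2.29e-07, higher in 3 of 3, the late one from 1 UMI), where 19.4% were called higher. The macrophage and dendritic classes differed by 0.91 (SE 0.43, adjusted p = 0.165), which did not pass, where 15.6% were called, 8.03% higher and 7.56% lower. The first of these calls was lost when each cell was classed by its own markers (2.70, adjusted p = 0.0893), and the dendritic one without the tumor sample in the model (adjusted p = 0.062).

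Cxcl11 was higher in macrophage or monocyte-like than in microglia-like cells, and fewer cells of the former class held it than held Cxcl9. In macrophage or monocyte-like cells it stood at 118, 51.7 and 3.45 CPM, with a UMI in 4.08%, 4.64% and 0.456% of cells (3.59%, 2.84% and 0.153% after thinning). The log2 ratio of medium to early in this class was -1.19 for Cxcl11 (-1.62 to -0.74) and 0.73 for Cxcl9 (0.54 to 0.93). In the summed level the order of these stages was thus opposite for the 2 genes, with early Cxcl11 found in 8 cells. That order was not seen throughout. Cxcl9 in run 2 stood at 769 CPM early and 744 medium, and in run 3 at 362 and 995. Before thinning, the share of cells with a Cxcl11 UMI was not lower in the medium sample. In microglia-like cells Cxcl11 stood at 7.66, 4.597 and 1.95, with a UMI in 0.802%, 0.741% and 0.399% of cells. Oligodendrocyte-like CD45- cells had one in 0.654%, 0.455% and 1.01% at the greater depths given above. After thinning, the microglial shares were 0.411%, 0.494% and 0.210% and the oligodendrocyte ones 0.148%, 0% and 0%, from 2 cells in all. The difference between macrophage or monocyte-like and microglia-like cells was 3.28 on the log2 scale (SE 0.69, adjusted p = 9.59e-04, edgeR, higher in 3 of 3). Cxcl11 passed the filter on low counts mainly through the macrophage or monocyte-like sums, so the direction of this call was partly fixed in advance. Dendritic cell-like cells did not differ from microglia-like cells beyond the spread (1.73, SE 0.95, adjusted p = 0.177), with 39.3 in the medium sample and 6.68 and 0 in the others. The CD45- classes of 20 or more cells stayed between 0 and 14.2 CPM, the oligodendrocyte-like cells at 3.28, 1.82 and 3.49.

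Cxcl10 was held by more classes than Cxcl9. Its UMIs in CD45+ cells came from microglia-like cells in 80.8% of cases at the early stage, from macrophage or monocyte-like cells in 56.3% at the medium stage, and from both about equally at the late stage (41.2% and 40.5%). Per cell class the level in microglia-like cells was 486, 377 and 265 CPM, with a UMI in 22.8%, 18.9% and 15.0% of cells (18.8%, 15.0% and 11.5% after thinning). In macrophage or monocyte-like cells it was 750, 622 and 263, with 30.6%, 28.3% and 18.1% of cells (22.6%, 21.6% and 10.4% after thinning). Of the oligodendrocyte-like CD45- cells 0.291% had a UMI at the early stage and none at the others. In the CD45+ sort it was 3.92% of 51 early oligodendrocyte-like and 7.25% of 193 medium B cell-like cells, both below the shares of these myeloid classes at the same stage. Other medium CD45+ classes came nearer, with 67 of 388 T cell-like and 21 of 172 glioma or oligodendrocyte progenitor-like cells. In run 1 the medium T cell-like share, 25.4%, was above the microglial one, 16.9%.

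The log2 ratio of late to early was -0.87 in microglia-like (-1.01 to -0.74) and -1.51 in macrophage or monocyte-like cells (-1.71 to -1.31). The late macrophage-type cells thus held Cxcl10 at 263 CPM while Cxcl9 was at 4.44. By run, the levels were 851, 490 and 466 for early microglia, 332, 343 and 496 for medium microglia, and 315 and 216 for the late runs that held enough cells.

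The difference in Cxcl10 between macrophage or monocyte-like and microglia-like cells was 0.62 on the log2 scale (SE 0.28, adjusted p = 0.123), which did not pass, and it turned to -0.36 when cells were classed one by one from their markers (adjusted p = 0.683). Dendritic cell-like cells, at 247, 212 and 179 CPM, were not called different from microglia-like cells (-0.62, SE 0.32, adjusted p = 0.155). They were below the macrophage or monocyte-like cells, which were higher by 1.24 (SE 0.33, adjusted p = 0.00877) in 3 of 3 tumor samples. That call was lost without the medium tumor sample (1.10, adjusted p = 0.132). Border or perivascular macrophage-like cells had 242, 236 and 160 CPM and neutrophil-like cells 167, 170 and 120. In the medium sample 8 of 103 dendritic cell-like cells had a Cxcl10 UMI, a share close to that of the B cell-like cells given above. The neutrophil-like level was not compared with that background.

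**Figure D2:**
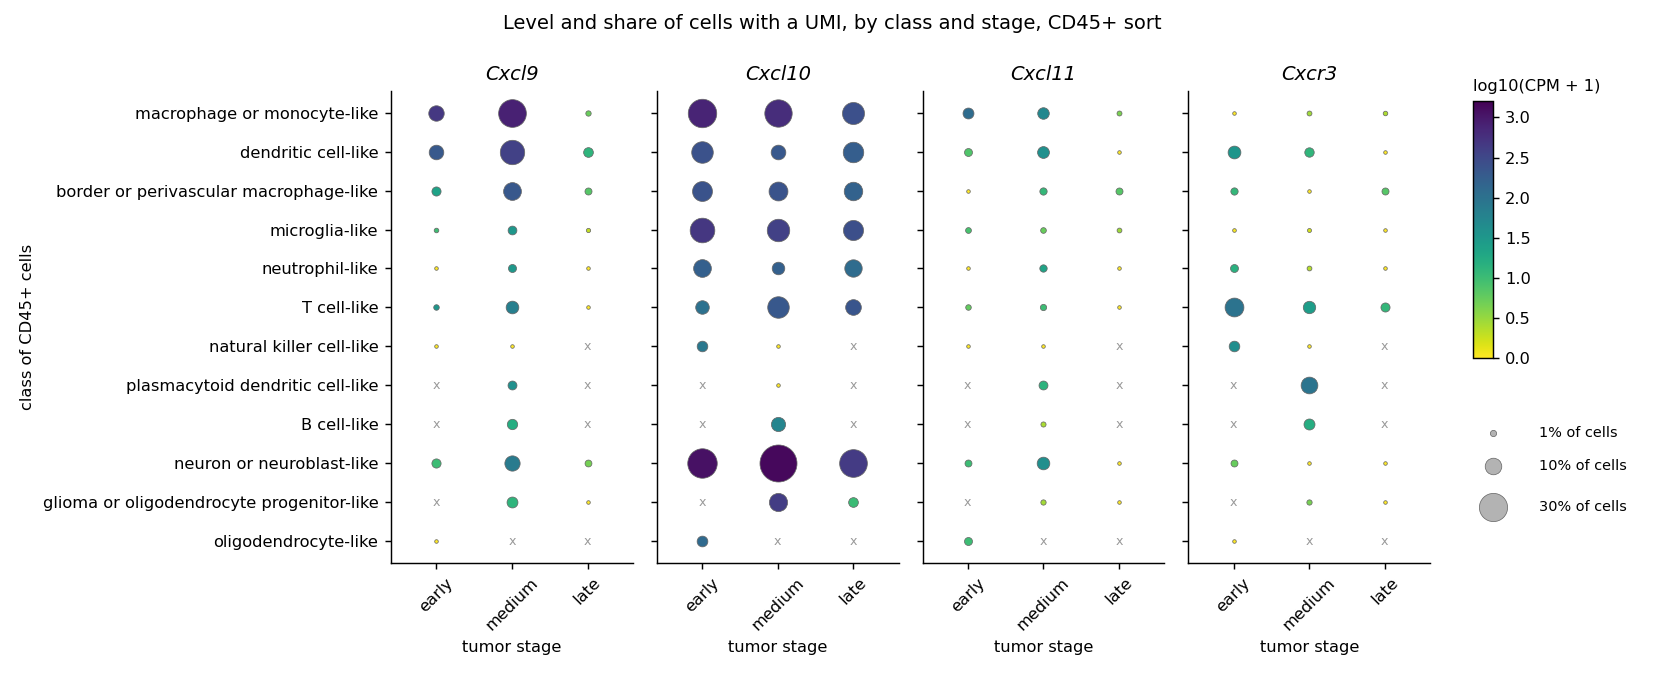
Levels of the 4 genes in classes of CD45+ cells (rows) at each tumor stage (columns). Dot colour gives log10 of CPM plus 1, dot area the percent of cells with a UMI, and x marks classes of fewer than 20 cells; Cxcl9 peaks in macrophage or monocyte-like and dendritic cell-like cells of the medium stage, Cxcl10 fills most rows and Cxcr3 at the early stage is highest in T cell-like cells.

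Clusters within a class differed in Cxcl9 and Cxcl10. The main macrophage or monocyte-like cluster, led by Cxcl9 itself, which was not used to cluster, and by Cd74 and H2-Aa of antigen presentation and the interferon-induced Ifi44, had 102, 1271 and 36 CD45+ cells at the early, medium and late stage. It held 1047, 1004 and 0 CPM of Cxcl9 and 84.9% of all medium CD45+ Cxcl9 UMIs. Its Cxcl10 level was 1263, 738 and 999, so the 36 late cells of this cluster held 92 Cxcl10 UMIs and no Cxcl9 UMI. With 36 cells, up to 9.74% of such cells could hold a Cxcl9 UMI unseen (Clopper-Pearson).

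The cluster marked by Spp1, which encodes osteopontin, and Arg1, which encodes an arginase, held most late macrophages (60, 118 and 593 cells). Cxcl9 there was at 5.61, 134 and 4.85 CPM, and Cxcl10 at 438, 282 and 238. A cluster led by Cxcl13 and AI506816, found in the medium sample with 116 cells, had 223 CPM of Cxcl9 and 346 CPM of Cxcl10. The 3 largest microglia-like clusters all held Cxcl10. The cluster led by Tnf and Ccl3 had 541, 492 and 340 CPM of Cxcl10, the one led by P2ry12 and Cx3cr1 423, 494 and 257, and the one led by Siglech 452, 288 and 170.

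**Figure D3:**
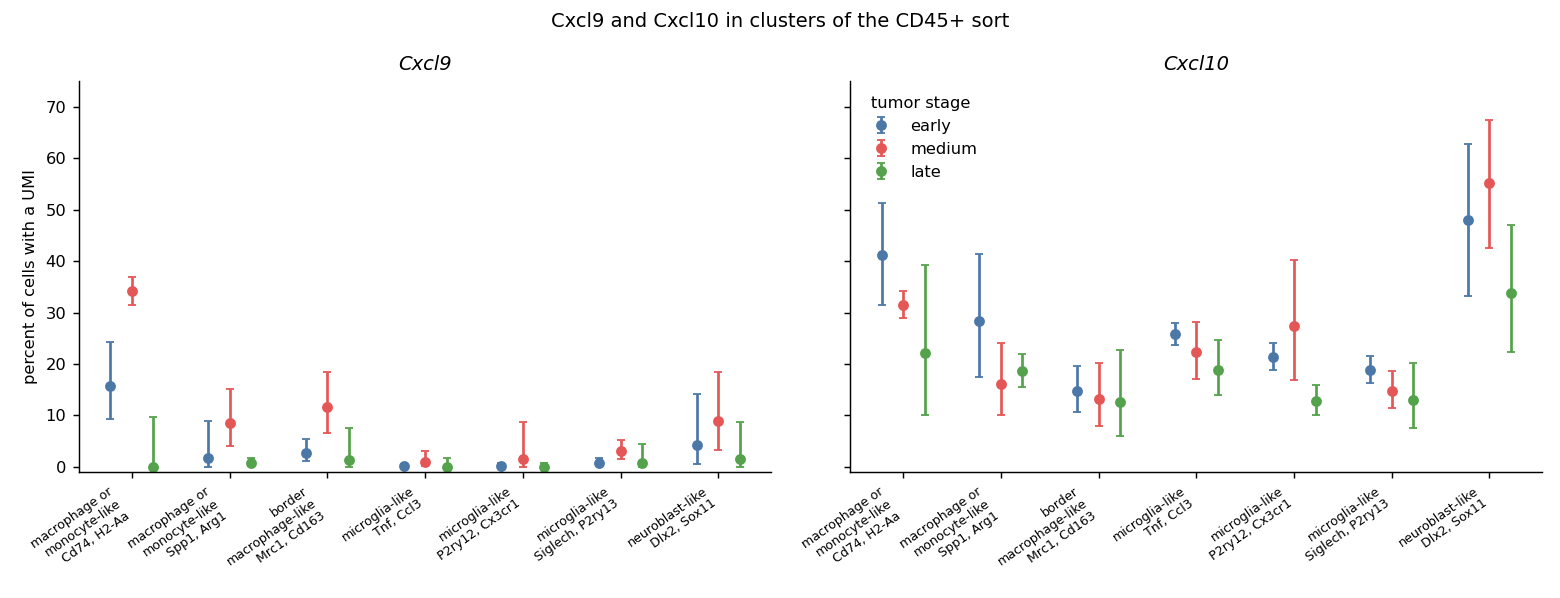
Percent of CD45+ cells with a Cxcl9 (left) or Cxcl10 UMI (right) in 7 clusters, labelled by class and leading genes, with 95% Clopper-Pearson intervals (counting error only) for each tumor stage. Cxcl9 reaches 34.1% in the Cd74 and H2-Aa cluster at the medium stage and 0% there at the late stage, whereas Cxcl10 lies between 12.7% and 55.2% in every cluster and stage shown.

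Early and medium macrophage or monocyte-like cells with a UMI of 1 ligand held another ligand more often than the rest of their class. Of 469 medium macrophage or monocyte-like cells with a Cxcl9 UMI, 42.2% also had a Cxcl10 UMI (37.7 to 46.8%, exact binomial interval), against 22.6% of the 1148 without (20.2 to 25.1%), at median depths of 2092 and 1917.5 UMIs. Of 75 cells with a Cxcl11 UMI, 64.0% had Cxcl10 and 70.7% had Cxcl9, against 26.5% and 27.0% of the other cells, at median depths of 2422 and 1953 UMIs. The early cells gave the same picture with 64.7% of 17 Cxcl9-positive cells holding Cxcl10 against 27.4% of 179. In the late sample 1 of 119 Cxcl10-positive macrophages had a Cxcl9 UMI. In early microglia-like cells 68.8% of 32 Cxcl11-positive cells had Cxcl10, against 22.4% of 3958, and 4 of 13 Cxcl9-positive cells had it (30.8%, against 22.8%). In medium microglia-like cells 10.0% of 20 Cxcl9-positive cells had Cxcl10, against 19.1% of 790. These cells share a tumor sample and are no replicates, so no test was made. The macrophage or monocyte-like class mixes clusters that differ in both Cxcl9 and Cxcl10, and co-detection within a cluster was not counted.

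Some early values rest on few cells. In early macrophage or monocyte-like cells Cxcl9 was found in 17 cells, 5 of which held 81.1% of its UMIs, and Cxcl11 in 8 cells, 5 of which held 89.5%. Cxcl10 was found in 60 of these cells, with 40.9% of its UMIs in 5. At the medium stage 469 cells of the class held Cxcl9, 457 Cxcl10 and 75 Cxcl11.

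**Figure D4:**
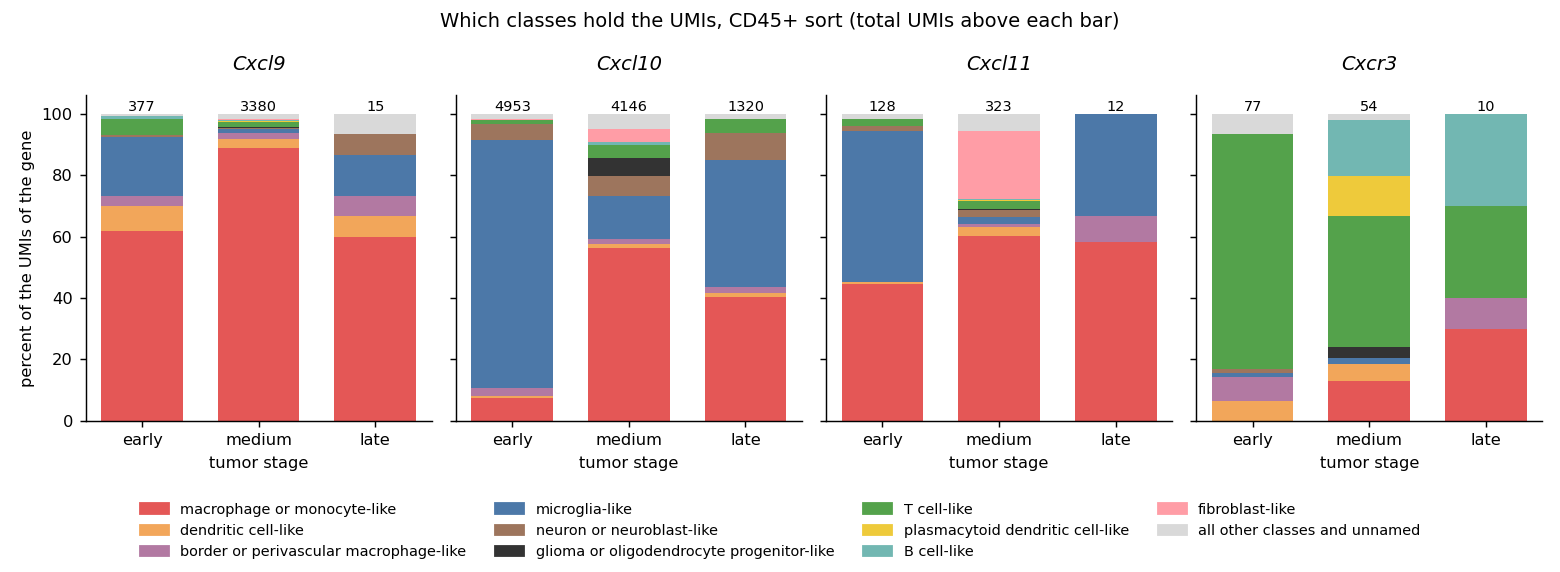
Percent of each gene's UMIs in CD45+ cells that fell in each class at the early, medium and late stage, with the number of UMIs above each bar. Macrophage or monocyte-like cells hold 89.0% of Cxcl9 at the medium stage, microglia-like cells 80.8% of Cxcl10 at the early stage and T cell-like cells 76.6% of Cxcr3 at the early stage.

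Cells of the CD45+ sort in the clusters named neuron or neuroblast-like had 1135, 1354 and 435 CPM of Cxcl10. Their markers went against that name, since the microglia markers summed to 6181, 5372 and 4283 CPM in them and the neuron or neuroblast markers to 2252, 371 and 730.5, and Cx3cr1, a gene of microglia, was in 80.8%, 83.1% and 81.6% of them. The Cxcl10 came from a cluster led by Dlx2 and Sox11, genes of immature neurons, with 48, 67 and 62 CD45+ cells (2096, 1445 and 545 CPM, 47.9%, 55.2% and 33.9% with a UMI). The microglial marker P2ry12 stood beside it, found in 87.5%, 56.7% and 64.5% of these CD45+ cells and in 6.15% and 4.76% of the 65 early and 21 medium CD45- cells of the cluster. Of those CD45- cells, 1 early cell had 34 Cxcl10 UMIs and the rest none. The part of microglial RNA in the CD45+ value was not tested.

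Glioma-type cells held Cxcl10 in the medium sample. Glioma or oligodendrocyte progenitor-like CD45- cells, in which hsEGFR, the transgene, was found in 0%, 70.0% and 75.3% of early, medium and late cells, had 0, 226 and 0.345 CPM of Cxcl10. The 569 medium UMIs lay in 32 of 434 cells (7.37%) and made up 72.7% of the Cxcl10 of the CD45- sort at that stage, and 5 cells held 71.9% of them, 1 cell alone 220. By run, the medium level was 21.2, 332 and 126 CPM, with 486 of the UMIs in run 2. By cluster, the level was 363 in 134 cells of a cluster found at the medium stage and led by AI506816 and Apobec3, and 154 in 300 cells of the larger cluster with Pdgfra. Ptprc, which encodes CD45, was in 2.07% of the medium cells, and the 8 microglia markers summed to 58.8 CPM.

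Cxcl9 in the medium CD45- cells of this class was at 1.19 CPM (3 UMIs) and Ifng at 0. Glioma-type cells in the CD45+ sort of the medium sample had 429 CPM of Cxcl10 in 172 cells. In the late CD45- sort, 53.5% of the 71 Cxcl10 UMIs lay in unnamed clusters of deep cells (9.67 CPM, median depth 6255 UMIs), whose 530 cells held hsEGFR in 89.2% of cases. These cells had 186.8 CPM of Art3, whose exon overlaps Cxcl10, or 19.3 Art3 UMIs per Cxcl10 UMI, so their Cxcl10 value is uncertain. Fibroblast-like CD45- cells had 73.4, 191 and 21.3, and microglia-like cells caught in the CD45- sort 550, 204 and 261. A group of 18 fibroblast-like cells in the medium CD45+ sort held 177 Cxcl10 and 72 Cxcl11 UMIs, the latter 22.3% of all Cxcl11 UMIs of that sort and stage.

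Most early Cxcr3 UMIs were in T cell-like cells. T cell-like cells of the CD45+ sort, 290, 388 and 112 at the 3 stages, had 94.8, 26.1 and 11.2 CPM of Cxcr3 from 59, 23 and 3 UMIs. A UMI was seen in 13.1% (9.44 to 17.5%), 5.41% (3.38 to 8.15%) and 2.68% (0.556 to 7.63%) of them, or 7.35%, 3.36% and 1.89% after thinning. Early T cells thus stood above medium ones, and the late share overlapped the medium one. Different clusters made up the class at each stage. A cluster led by Ccl5, Gzmb and Cd8a held 110 of the 290 early cells, one led by Xcl1 and Cd27 held 123 of the 388 medium cells, and one led by Il13, Areg and Gata3 held 41 of the 112 late cells and no Cxcr3 UMI. T cell-like cells held 76.6%, 42.6% and 30.0% of Cxcr3 UMIs. Per T cell-like UMI the log2 ratio to the early stage was -1.86 at the medium (-2.62 to -1.14) and -3.09 at the late stage (-5.40 to -1.47).

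Microglia-like cells, at 0.122, 0.657 and 0 CPM, gave 1, 1 and 0 cells with a Cxcr3 UMI, which serves as the background (0.0251% and 0.123% of cells). Cxcr3 did not pass the filter on low counts in the fit across classes. When every gene with a count was tested it was higher in T cell-like than in microglia-like cells by 7.53 on the log2 scale (SE 0.88, adjusted p = 1.32e-15, edgeR over 27583 genes, of which 6.48% were called higher), and DESeq2 gave 8.04 (adjusted p = 1.28e-15). With microglia-like cells at the background, Cxcr3 could be called in that direction only, and the size of the difference is not firm. T cell-like cells were above microglia-like cells in 3 of 3 tumor samples.

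Among other lymphoid and dendritic classes the counts were small. Natural killer cell-like cells numbered 26 early and 27 medium, with 2 Cxcr3 UMIs in 1 early cell and none in the medium ones, and the 4 late cells were too few for a test. In the medium sample 4 of 39 plasmacytoid dendritic cell-like cells (10.3%, 2.87 to 24.2%) and 8 of 193 B cell-like cells (4.15%, 1.81 to 8.004%) had a Cxcr3 UMI. Dendritic cell-like cells had 33.4, 11.8 and 0 CPM, from 3, 3 and 0 cells, and macrophage or monocyte-like cells 0, 1.87 and 1.48, the late value from 3 UMIs, as many as in the late T cell-like cells. In the medium sample the intervals of the plasmacytoid, B cell-like, dendritic and T cell-like shares all overlapped.

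**Figure D5:**
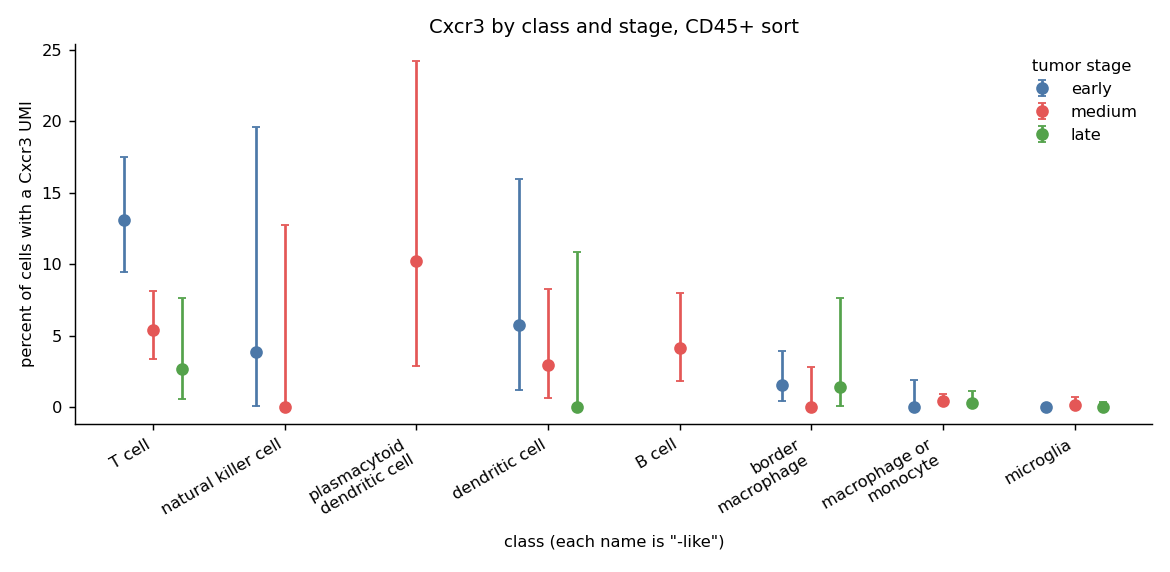
Percent of CD45+ cells with a Cxcr3 UMI by class and tumor stage, with 95% Clopper-Pearson intervals (counting error only); classes of fewer than 20 cells are left out. T cell-like cells stand at 13.1%, 5.41% and 2.68%, and microglia-like cells at or below 0.123%.

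Within the T cell-like class, cells with a CD8 transcript had 52.1, 21.8 and 0 CPM of Cxcr3 (135, 139 and 19 cells), and cells without one 136, 28.7 and 13.1 (155, 249 and 93 cells). Those with a Cd4 and no CD8 transcript had 221, 39.9 and 9.25 (36, 75 and 35 cells). Over all stages the share with a UMI was 5.80% with CD8 (3.42 to 9.13%), 9.05% without (6.68 to 11.9%) and 11.6% with Cd4 alone (6.93 to 17.99%), and these intervals overlapped. At the early stage the Poisson interval of the level with CD8 (29.8 to 84.6 CPM) lay below those without CD8 (98.7 to 184) and with Cd4 alone (124 to 365). The intervals of the early shares overlapped (4.68 to 15.0%, 11.3 to 23.6% and 12.1 to 42.2%). Ifng in the T cell-like cells stood at 267, 426 and 89.4 CPM, so that Ifng was at its highest in the medium sample, where Cxcl9 was, and Cxcr3 in the early one. Cxcr6, another chemokine receptor of tissue T cells, was at 522, 242 and 596.

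T cell-like cells also held ligand UMIs. Cxcl9 was at 32.1, 67.0 and 0 CPM, the early value from 2 cells, above microglia-like cells by 1.48 on the log2 scale (SE 0.49, adjusted p = 0.0169, higher in 2 of 3), where 40.3% of genes were called, 24.3% as higher. That call was lost without the early tumor sample (0.85, adjusted p = 0.204), with finer clusters (0.21, adjusted p = 0.834) and with called doublets kept (0.69, adjusted p = 0.317). Cxcl10 was at 103, 213 and 223, below microglia-like cells by a log2 difference of -0.89 (SE 0.30, adjusted p = 0.0197, lower in 3 of 3), where 16.1% were called lower. Without the early or the medium tumor sample this call was lost too (adjusted p = 0.125 and 0.0654). Beside these values, the microglia markers summed to 2160, 1501 and 1340 CPM in the T cell-like cells, and P2ry12 was in 28.3%, 19.6% and 16.1% of them. The macrophage and monocyte markers summed to 1409, 1158 and 1188 CPM in the T cell-like cells. The part of microglial or macrophage RNA in these ligand values was not tested.

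The pathway list was also compared between the classes. Of 25 listed genes tested between macrophage or monocyte-like and microglia-like cells, 5 were higher and 3 lower (14.2% of all genes were called higher and 6.84% lower), with a median of 0.22 against 0.08 for all genes. Without scaling factors, which moved the median of all genes by -0.18 and the share of higher calls among all calls from 67.5% to 50.1%, the counts were 4 and 5. Irf7 was higher in the macrophage class by 4.92 (97.3, 111 and 9.86 against 1.34, 7.22 and 0.488 CPM, adjusted p = 0.00168), and so were Ifnar1, Socs1, Dpp4 and Pf4, a chemokine of platelets and macrophages, by 1.15 to 4.39. With at most 1.95 CPM in microglia-like cells, Dpp4 could be called in that direction only. Socs1, an inhibitor of interferon signalling, no longer passed without the factors. Tnf was lower in macrophages than in microglia by -1.83 (466, 161 and 171 against 1113, 1220 and 587, adjusted p = 0.0265), as were Rela and Ifngr1.

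In dendritic cell-like cells against microglia-like cells 7 of the 25 were higher and 4 lower (19.4% and 12.6% of all genes, median 0.42 against 0.08), or 5 and 6 without scaling factors, which moved the median by -0.23 and the share of higher calls from 60.6% to 50%. The 7 include Dpp4 and Stat4, at most 1.95 and 1.97 CPM in microglia-like cells, which could be called in that direction only. Jak2 was higher with and without the factors. In T cell-like against microglia-like cells 11 were higher and 7 lower (24.3% and 16.1% of all genes), or 9 and 7 without the factors, the median moving by -0.13. Those higher include Ifng and Cxcr6, which passed the filter through the T cell-like sums and were at most 2.63 and 1.31 CPM in microglia-like cells. Between macrophage or monocyte-like and dendritic cell-like cells 1 was higher and 4 lower (8.03% and 7.56% of all genes).

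Over 42 sums of class, sort and stage, genes were ranked by the Pearson correlation of log levels with each member, as a description over sums that share tumor samples and libraries. Nearest to Cxcl9 among 16833 genes were Ifi211 (r = 0.895) and Ifi205 (r = 0.883), members of the interferon-inducible p200 family, then Ms4a4c, AC166110.3 and Phf11b. Ms4a4c was also 1 of the markers that named the macrophage class. Nearest to Cxcl10 were Art3 (r = 0.937), then Mpeg1, which encodes a perforin-like protein of macrophages, Ifngr2, Tlr2 and Ly86. Cxcl9 was nearest to Cxcl11 (r = 0.780), followed by Oasl1 and Dna2, and Cxcl9 and Cxcl10 gave r = 0.491. Nearest to Cxcr3 were P2ry10 (r = 0.884), Gm19585, Itgb7, Trbc2 and Pkp3, and Ifng stood at rank 13 (r = 0.791).

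Art3 is the gene whose exon overlaps the end of Cxcl10. In CD45+ cells 0.253, 0.248 and 0.329 Art3 UMIs were counted per Cxcl10 UMI at the early, medium and late stage, and Art3 was in 56.2%, 53.0% and 62.5% of cells with a Cxcl10 UMI against 0.3997%, 0.599% and 0.503% of those without. In the CD45- sort the ratios were 0.303, 0.602 and 11.0, and in the late one Art3 was in 13.3% of cells without Cxcl10. The medium glioma or oligodendrocyte progenitor-like CD45- cells had 0.624 Art3 UMIs per Cxcl10 UMI, with Art3 in 90.6% of Cxcl10-positive and 9.70% of other cells. Reads of the shared bases can be in either count, so the split between these genes is uncertain.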

How the data were processed

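The members and all gene lists were chosen with earlier results of these data known. The deposited table held raw UMI counts per gene and cell. Per the study's methods, the authors made it from inDrop libraries with bcbio-nextgen and RapMap against GRCm38 (Ensembl 94) with 3 transgene rows, and called cells against empty droplets; the submitters' processing notes name mm10. The methods also describe removal of ambient RNA and of doublets with scDblFinder, but do not state whether either preceded the table.

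Of 20811 cells in 24 libraries, 17894 had at least 500 UMIs and 500 genes and at most 20% mitochondrial UMIs. Scrublet was run in each library, with 2 libraries too small for it, and called 113 of 17786 cells (0.635%); 17781 cells were kept. Cells were clustered with scanpy 1.11.5 (2000 variable genes, 40 components, 20 neighbours, Leiden resolution 1), leaving out the members and the pathway list (36 genes). The 29 first clusters became 49 after 3 were split again, and each was named from 3 or more of its class's markers; 4 clusters (778 cells) stayed unnamed. A class named here may differ from one the study named.

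Counts were summed per tumor sample and sort, or per class (20 or more cells), and tested with edgeR 4.0.16 (quasi-likelihood, TMM scaling factors, filterByExpr, two-sided, adjusted p at 0.05) in R 4.3.3 with the tumor sample as a block, since both sorts came from the same tumor. The check of that pairing gave correlations of 0.382, 0.279 and 0.307 between same-tumor deviations over 18433 genes, against -0.265 to 0.012 for the other pairs. DESeq2 1.42.0 was an alternative. Poisson and Clopper-Pearson intervals are at 95%, and they and the limits for a count of 0 (3 counts) cover counting error only. Shares were repeated with each cell thinned to 1000 UMIs. The named genes were the 4 members, the pathway list of 32 genes and, for each member, the 5 genes nearest in pattern (sums of 50 or more cells, log2 of CPM plus 10); marker genes and cluster leaders were named as descriptions. Symbols were missing for 109 gene IDs. The tests were checked on simulated data. Some alleles and genes are not reported here.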

Additional observations from a re-analysis of the deposited data

Results flagged for a closer look

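Cxcl9 in 1 library of the early CD45- sort stood apart from the other 3. That library, of run 1 with 630 cells, had 8 UMIs or 5.39 CPM, and the others had none, so its gap was the whole range. It was 1 of 21 groups of 4 libraries examined, and chance marks about 1 group in 20. Of the 8 UMIs of that library, 6 were in 1 macrophage or monocyte-like cell. No explanation was tested.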

How the results depend on the processing

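The stages rest on 1 tumor sample each, and with 3 pairs the spread is poorly known. Of 205 values from alternatives, 163 kept their direction and side of the threshold or moved within their error; no member changed sign without TMM factors. Where not named here, the cause of a change was not tested.

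Between sorts, Cxcl9 was 4.91 (adjusted p = 0.111) with every gene tested and Cxcl11 passed with DESeq2 (2.08). Without the replicate block, that is without the pairing, Cxcl11 passed (2.72), while Cxcl9 in dendritic against microglia-like (4.35), Cxcl10 in macrophage against dendritic cell-like (1.28) and, in T cell-like against microglia-like cells, Cxcl9 (1.71) and Cxcl10 (-0.96) did not, and no other call on a ligand changed. Leaving out 1 tumor sample gave 1.17 to 3.14 for Cxcl11 between sorts, 1.10 to 1.60 for Cxcl10 in macrophage against dendritic cell-like cells, and, in T cell-like against microglia-like cells, 0.85 to 1.80 for Cxcl9 and -1.50 to -0.65 for Cxcl10.

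With cells classed one by one, macrophage against microglia-like values were 2.70 for Cxcl9 and -0.36 for Cxcl10. With every gene tested, dendritic against microglia-like Cxcl10 passed (-1.04, and -1.11 at resolution 2), as did macrophage against dendritic cell-like Cxcl9 (1.22). T cell-like Cxcl9 did not pass with DESeq2 (1.30), at resolution 2 (0.21), classed per cell (0.63), with doublets kept (0.69) or, as added after seeing the data, without the second split (1.21). Cxcl11 of macrophage against microglia-like cells passed in all 8 alternatives that could test it (2.55 to 3.67). Dendritic contrasts could not be fitted under 4 settings, with too few cells left. Natural killer contrasts were not run, since the late sample held 4 such cells.

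Of stage ratios in CD45+ cells, Cxcl9 medium over early was 3.48 as a mean over cells and 5.39, 2.78 and 3.90 by run. Cxcl10 medium over early was 0.0041 as a mean over cells and -0.67 in run 1, and its late over early ratio -1.27, -0.59 and -1.23 by run. Cxcr3 medium over early was -1.27 in run 1, from 9 and 5 UMIs. Thinning moved 9 of 12 shares, all downward, a direction largely fixed in advance since a thinned cell can only lose UMIs.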
